A study of Mus musculus with 6 samples.

Results

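The subject here is a module of 35 genes, the immediate early transcription factors, the feedback genes that are induced with them, and the cytosolic heat shock proteins, measured in alveolar macrophages of wildtype and Sdha-KO mice. Its members were taken by name from a list. All 35 had a row among the 23282 rows of the count table, and 34 of them were among the 9963 rows with enough counts to be tested. By role they were 6 AP-1 factors (Fos, Fosb, Fosl2, Jun, Junb, Jund), 9 zinc finger and nuclear receptor factors (Egr1, Egr2, Egr3, Klf2, Klf4, Klf6, Nr4a1, Nr4a2, Nr4a3) and 4 other immediate early factors (Myc, Maff, Ier2, Ier5). The rest were 7 feedback genes (Btg1, Btg2, Zfp36, Zfp36l1, Dusp1, Dusp2, Dusp5) and 9 heat shock genes (Hspa1a, Hspa1b, Hspa8, Hsp90aa1, Hsp90ab1, Hsph1, Dnajb1, Dnaja1, Hspb1).

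Alveolar macrophages, the resident phagocytes of the air spaces, were sorted from mouse lung by flow cytometry as CD45+ CD11c+ F4/80+ SiglecF+ CD11b- cells. One group of 3 libraries came from mice labelled wildtype. The other 3 came from Sdha-flox LysM-Cre mice, called Sdha-KO, in which Cre made from the Lyz2 locus acts across myeloid cells on the gene of the flavoprotein subunit of succinate dehydrogenase. The labels name no further allele, agent, age or sex, and do not say whether the wildtype mice carried Cre or whether animals were pooled. Each replicate number, 1 to 3, is also a batch number that 1 library of each genotype shares. The p-values below reflect how much these libraries vary, and part of that may be technical.

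Immediate early genes are switched on within minutes of a stimulus, without new protein synthesis, by factors that already sit at their promoters, such as SRF with its ETS partners and CREB. Their messages are short-lived, and they induce their own brakes, among them the phosphatases of the DUSP family that switch off MAP kinases and the RNA-binding proteins Zfp36 and Zfp36l1 that destroy AU-rich messages. Heat shock genes are driven by HSF1 when unfolded protein accumulates. Both programs are known to be induced in tissue macrophages by enzymatic digestion and sorting as well as by signals in the living tissue. Every library here came from sorted cells, and whether a transcript was made in the lung or during preparation was not tested.

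Sequence features that the choice of genes did not use were read first, as a view of the regulatory letters that the members carry. RefSeq promoters (GRCm38.p6, 250 bases before to 50 bases after the start) matched 28 of the 35 members, 22 of them immediate early or feedback genes and 6 heat shock genes. Egr1, Egr3, Myc, Ier2, Hspa8, Hsp90aa1 and Hsp90ab1 had no matched promoter and were not searched, nor was any sequence outside this window. The letters TGACG, the short form of the cyclic AMP response element that CREB binds, were present on either strand for 15 of 22 immediate early and feedback genes (68.2%) and for 23.0% of all 27025 genes with a promoter in the table, a gene counting once if any of its promoters matched. The short form was also present for 3 of the 6 heat shock genes with a promoter (Dnajb1, Dnaja1 and Hspb1). It was therefore not particular to the immediate early and feedback genes. The whole element TGACGTCA, which contains the short form on both strands, was found in Maff, Btg2 and Dusp1 (13.6%, against 2.03% of all genes). The SRF CArG box was found in Egr2, Zfp36 and Dusp5 (13.6%, against 1.81%), and an AP-1 site, TGANTCA, in Zfp36l1 (4.55%, against 8.97%). A pair of adjoining heat shock units, GAANNTTC or TTCNNGAA, was found in 5 of the 6 heat shock genes with a promoter (Hspa1a, Hspa1b, Hsph1, Dnaja1 and Hspb1, 83.3%, against 17.0% of all genes) and in 3 of 22 immediate early and feedback genes (Fosl2, Jun and Egr2, 13.6%). A match is a description of letters and shows neither binding nor use, and these shares carry no test.

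The promoters of 6 members on which the results below turn are printed 5′ to 3′ on the gene's strand (the first listed where a gene has several), with motif matches in capitals. Fos, Junb and Dusp1 carry the short CREB site, 66 and 129 bases before the start in Fos and 106 bases before it in Junb. Dusp1 holds the whole element 143 bases before the start and a further short site at 191. Zfp36 holds a CArG box 58 bases before the start. The heat shock pair lies 104 bases before the start of Hspa1a, and in Hsph1 it lies 33 bases before the start, with 2 more matches that overlap each other 36 and 41 bases after it.
Fos promoter, chr12:85473640-85473939, plus strand: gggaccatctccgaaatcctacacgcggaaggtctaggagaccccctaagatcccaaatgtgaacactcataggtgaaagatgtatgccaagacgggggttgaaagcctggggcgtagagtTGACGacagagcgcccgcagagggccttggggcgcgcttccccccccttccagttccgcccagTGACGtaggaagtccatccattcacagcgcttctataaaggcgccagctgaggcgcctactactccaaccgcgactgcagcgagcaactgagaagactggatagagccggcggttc
Junb promoter, chr8:84978699-84978998, minus strand: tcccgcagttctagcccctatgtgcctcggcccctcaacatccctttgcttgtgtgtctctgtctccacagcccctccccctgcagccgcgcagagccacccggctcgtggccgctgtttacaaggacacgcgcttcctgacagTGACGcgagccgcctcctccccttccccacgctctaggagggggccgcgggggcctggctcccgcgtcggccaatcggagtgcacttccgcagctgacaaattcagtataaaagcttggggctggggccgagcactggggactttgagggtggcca
Zfp36 promoter, chr7:28379179-28379478, minus strand: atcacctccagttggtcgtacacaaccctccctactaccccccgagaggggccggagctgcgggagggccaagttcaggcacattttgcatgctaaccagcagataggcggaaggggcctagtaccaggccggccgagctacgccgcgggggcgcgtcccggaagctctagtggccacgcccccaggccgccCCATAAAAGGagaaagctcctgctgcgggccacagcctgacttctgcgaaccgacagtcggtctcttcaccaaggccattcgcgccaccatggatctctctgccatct
Dusp1 promoter, chr17:26508423-26508722, minus strand: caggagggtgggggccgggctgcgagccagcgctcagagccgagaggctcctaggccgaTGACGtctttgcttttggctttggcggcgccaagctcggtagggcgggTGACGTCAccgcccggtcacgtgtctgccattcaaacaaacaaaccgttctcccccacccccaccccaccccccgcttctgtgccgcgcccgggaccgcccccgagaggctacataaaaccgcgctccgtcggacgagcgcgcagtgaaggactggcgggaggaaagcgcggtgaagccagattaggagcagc
Hspa1a promoter, chr17:34972107-34972406, minus strand: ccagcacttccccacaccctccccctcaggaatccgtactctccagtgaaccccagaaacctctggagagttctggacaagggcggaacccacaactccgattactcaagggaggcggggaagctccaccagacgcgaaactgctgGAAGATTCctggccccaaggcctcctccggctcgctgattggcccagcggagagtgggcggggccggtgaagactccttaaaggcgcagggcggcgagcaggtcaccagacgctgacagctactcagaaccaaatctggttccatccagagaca
Hsph1 promoter, chr5:149636287-149636586, minus strand: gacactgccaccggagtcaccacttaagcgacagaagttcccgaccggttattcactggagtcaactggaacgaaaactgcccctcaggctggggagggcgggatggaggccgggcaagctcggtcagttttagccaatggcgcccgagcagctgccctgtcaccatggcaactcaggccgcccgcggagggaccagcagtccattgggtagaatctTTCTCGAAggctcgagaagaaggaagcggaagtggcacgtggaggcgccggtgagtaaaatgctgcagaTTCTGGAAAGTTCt

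A feature at the other end of the message was more frequent in the immediate early and feedback members than in all tested genes. In the longest annotated 3′ untranslated region of each gene (GENCODE M21), 16 of 26 immediate early and feedback genes (61.5%) held at least 3 copies of ATTTA, the core of the AU-rich element through which Zfp36 proteins shorten a message's life, against 39.1% of 9260 tested genes and 1 of 9 heat shock genes (11.1%). Per kilobase ATTTA occurred 2.38 times in immediate early and feedback genes, 1.67 in heat shock genes and 1.84 in all tested genes. The stricter nonamer TTATTTATT was present in 6 of 26 immediate early and feedback genes (23.1%), against 8.24% of tested genes and 0 of 9 heat shock genes. The median untranslated region measured 1208 bases in the immediate early and feedback genes and 1184.5 bases in all tested genes, and in the 9 heat shock genes it was 810 bases. The 6 members with the nonamer are shown with 30 bases around the first match, the nonamer in capitals, and Zfp36 itself is one of them.
Fos: tgttttcaatTTATTTATTaagatggattc
Fosl2: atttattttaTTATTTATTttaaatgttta
Maff: ttccacactcTTATTTATTgcacgaatcta
Zfp36: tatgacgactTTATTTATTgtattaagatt
Zfp36l1: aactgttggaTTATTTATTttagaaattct
Dusp1: gagctggtccTTATTTATTtaacacccccc

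The members are also compact. They span a median of 5324 bases on the genome (1522 to 56539), against 23166 bases for 9556 tested genes with an annotation match, and the annotated transcript with the most exons has a median of 3 exons against 9. Exons of Jun, Junb, Jund, Zfp36, Zfp36l1, Dusp1, Dusp5, Hspa1a and Dnaja1 overlap a gene annotated on the opposite strand. Since the use of strand is not given in the sources used here, counts of these members are uncertain. For Junb the partner is Prdx2, a peroxiredoxin whose end overlaps the end of Junb. Prdx2 had 62.9, 44.2 and 48.4 CPM in wildtype replicates 1 to 3 and 0, 23.1 and 47.4 CPM in Sdha-KO replicates 1 to 3, and it was at 0 in the library where Junb was highest. In the last 300 bases, where a 3′ kit reads, Hspa8 matched 7 pseudogenes and Hspb1 matched 1 over at least 50 bases at 95% identity or more, and none of these copies had a row in the table.

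Values are given as CPM, a gene's share of a library size that was scaled by its TMM factor, and are not divided by length, since the kit reads transcript ends. Total counts were 5400160 to 8472907 per library, so that a count of 0 allows up to 3 counts, or 0.250 to 0.666 CPM for counting error only. The batch 1 libraries stood apart from the other 4. Among 3447 genes that had 100 counts or more in every one of those 4, 136 were at 0 in the wildtype and 612 in the Sdha-KO library of batch 1, and of the 35 members 6 and 5 were at 0 there, against 0 or 1 elsewhere. Sdha, the targeted gene (mm10, as for all gene positions here, chr13:74322254-74350280, minus strand), was at 56.00, 65.5 and 72.2 CPM in the wildtype and 26.1, 21.01 and 22.8 CPM in the Sdha-KO replicates 1 to 3, with no overlap (log2 fold change -1.47 (SE 0.818), edgeR adjusted p = 1.00). The sources used here do not name the deleted exons, so a kit that reads transcript ends gives only a limited check of the deletion. The mix of male and female RNA differed as well, in opposite directions between batches. In replicate 1 the X-inactivation RNA Xist had 0 counts in the wildtype and 2683 in the Sdha-KO library, and the Y-linked Ddx3y had 222 and 0. In replicates 2 and 3 Xist counts were 4608 and 6055 in wildtype and 498 and 822 in Sdha-KO libraries, while Ddx3y had 0 and 143 counts in wildtype and 354 and 432 counts in Sdha-KO libraries.

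The sorted cells were checked against marker lists. All 16 alveolar macrophage markers were tested, with summed levels of 12539 to 13216 CPM in the wildtype and 10219 to 11994 CPM in the Sdha-KO libraries, and 1 of them, Ear1, passed the test and was lower in Sdha-KO. Of the 16, 5 had a positive and 11 a negative fold change. All Sdha-KO libraries lay above all wildtype libraries for 1, Car4, and below them for 4, against 5.04% and 9.27% of all tested genes. SiglecF, a marker of the sort, was at 103, 138 and 132 CPM in the wildtype and 0, 39.6 and 45.3 CPM in the Sdha-KO libraries. Markers of other cells had lower sums than the alveolar macrophage list, and some sums were separate between genotypes. The 8 tested interstitial macrophage and monocyte markers all had a positive fold change, with sums of 30.4 to 54.9 CPM in the wildtype and 79.5 to 230.3 CPM in the Sdha-KO libraries, and the 5 tested neutrophil markers did too, with sums of 80.7 to 111 CPM and 176 to 238 CPM. Dendritic cell markers summed to 38.4 to 64.7 CPM in the wildtype and 9.60 to 267 CPM in the Sdha-KO libraries (6 of 7 positive). Of the T and NK list 3 genes were tested, all with a negative fold change, and most of its summed level was Cd2, at 524, 258 and 368 CPM in the wildtype and 197, 66.8 and 141 CPM in the Sdha-KO libraries, while Cd3d, Cd3e and Cd3g were each at 0 to 4.97 CPM. B cell, epithelial, endothelial and fibroblast, and erythroid sums overlapped between genotypes. Epithelial sums were 229 to 409 CPM in the wildtype and 118 to 701 CPM in the Sdha-KO libraries. Erythroid sums were 161 to 249 CPM and 87.0 to 388 CPM. Both of these sums were highest in replicate 3 of each genotype. Of eosinophil markers only Ear6 was tested, at 0, 13.3 and 18.5 CPM in the wildtype and 261, 90.9 and 76.3 CPM in the Sdha-KO libraries, while Prg2 and Epx were at 0 in all 6 libraries, as were Folr2, Cd8a and Pax5. The part of these cells in the member values below was not tested, and in bulk RNA fewer cells of a type and less RNA per cell cannot be told apart.

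No member passed the test between genotypes. With edgeR's quasi-likelihood test and Benjamini-Hochberg adjustment over 9963 genes, 5 genes passed an adjusted p of 0.05 (0.0502%) and 0 of 34 members did, with an adjusted p of 1.00 for every member. At an unadjusted p of 0.05 there were 3 members (Junb, Zfp36 and Fosl2, 8.82%) against 2.64% of all tested genes. DESeq2 called 21 genes (0.211%) and 0 members (2 at an unadjusted p of 0.05), and limma-voom called 1, Junb, with an adjusted p of 0.0470, among 79 genes (0.793%). With the replicate number as a block limma-voom called 3 genes (0.0301%) and 0 members, and Junb had an adjusted p of 0.496.

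The direction of the members leaned to higher values in Sdha-KO. Of 34 tested members 23 had a positive log2 fold change (67.6%), where 45% of all tested genes had one. The median log2 fold change was 0.45 over the members and -0.13 over all tested genes. These medians were 0.70 and 0.05 with library totals in place of TMM factors, and 0.09 and -0.65 with limma-voom. Without both batch 1 libraries they were 0.25 and -0.02. By role the median was then 0.10 for immediate early and feedback members and 0.52 for heat shock genes. On all 6 libraries it was 0.425 and 0.47. Members are more abundant than most genes (median of 177.5 against 17.49 CPM). Among 4595 genes with a mean of at least 20 CPM, 48.9% had a positive fold change, against 21 of the 30 members above that level (70%). All 3 Sdha-KO libraries lay above all 3 wildtype libraries for 4 members (Fosl2, Junb, Zfp36 and Dusp2, 11.8%), against 5.04% of all tested genes and 8.84% of the abundant ones, of which 3 of 30 members (10%) were part, a share near the background. None lay entirely below, against 9.27% of all tested genes.

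**Figure D1:**
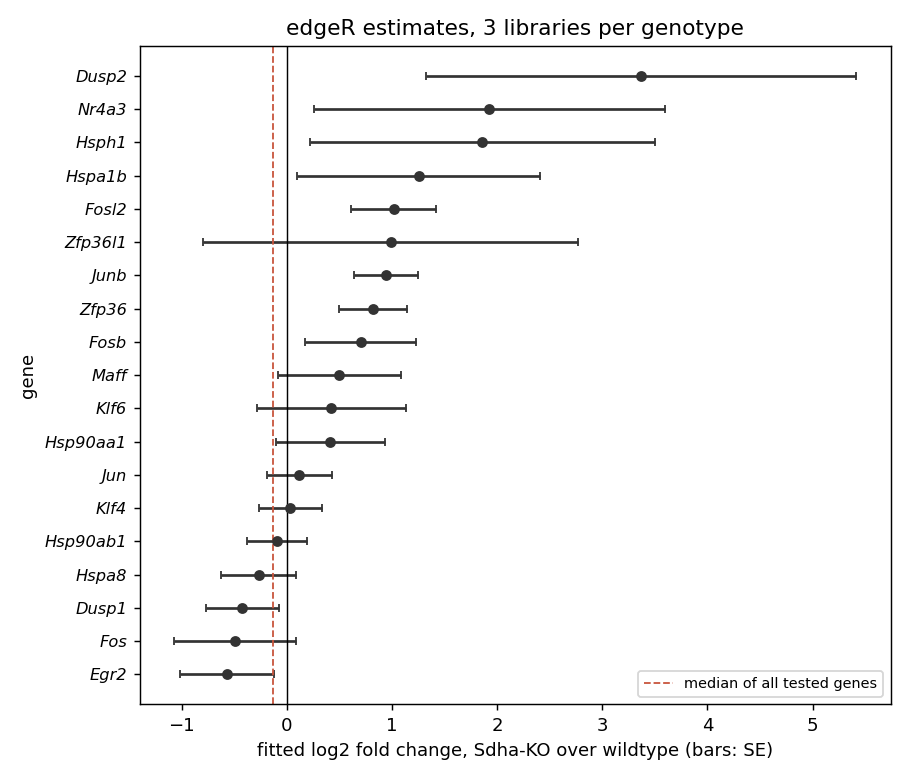
Fitted log2 fold change (x axis, Sdha-KO over wildtype, bars are the SE) of 19 members named by a fixed rule (y axis), from 3 libraries per genotype, with the median of all tested genes as a dashed line. Dusp2, Nr4a3 and Hsph1 have the highest estimates, with wide bars, while Fosl2, Junb and Zfp36 sit near 1 with narrower bars.

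The AP-1 factors, which pair through leucine zippers to bind AP-1 sites, included 2 of the 4 members with separate genotype groups. Junb (chr8:84974484-84978718, minus strand), an AP-1 subunit that often restrains Jun, had 529.9, 371 and 507 CPM in wildtype replicates 1 to 3 and 1156, 848 and 705 CPM in Sdha-KO replicates 1 to 3. Every Sdha-KO library lay above every wildtype library, at 469 ± 86.1 CPM in the wildtype and 903 ± 231 CPM in the Sdha-KO libraries (SD, n = 3 each). The fitted log2 fold change was 0.94 (SE 0.306), with an unadjusted edgeR p of 0.00934 that did not hold after adjustment (1.00). Fosl2 (chr5:32135801-32157842, plus strand), a longer-lived relative of Fos, had 77.2, 115 and 146 CPM in wildtype replicates 1 to 3 and 273, 212 and 200.5 CPM in Sdha-KO replicates 1 to 3. Its groups did not overlap either, and the log2 fold change was 1.02 (SE 0.403), unadjusted edgeR p 0.0265, adjusted p 1.00.

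The other AP-1 genes overlapped between genotypes. Fos (chr12:85473890-85477273, plus strand), the founding immediate early gene, had 620.3, 823 and 641 CPM in wildtype replicates 1 to 3 and 122, 884 and 475 CPM in Sdha-KO replicates 1 to 3. Its lowest and its highest library were both Sdha-KO, replicates 1 and 2, and the log2 fold change was -0.49 (SE 0.58). Fosb (chr7:19302696-19310051, minus strand) had 184, 462 and 988 CPM in wildtype replicates 1 to 3 and 600.4, 1042 and 1017 CPM in Sdha-KO replicates 1 to 3. The Sdha-KO library was the higher one in all 3 replicate numbers, by 1.70 and 1.17 on the log2 scale in numbers 1 and 2 and by 0.04 in number 3, and the fitted log2 fold change was 0.70 (SE 0.528). Jun, the main partner of Fos, had 496, 354 and 604 CPM in wildtype replicates 1 to 3 and 555, 532 and 492 CPM in Sdha-KO replicates 1 to 3, a narrow range in which all 3 Sdha-KO libraries lay within the wildtype range (log2 fold change 0.12 (SE 0.307)). Jund ranged from 252 to 482 CPM in the wildtype and from 240.1 to 514 CPM in the Sdha-KO libraries.

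**Figure D2:**
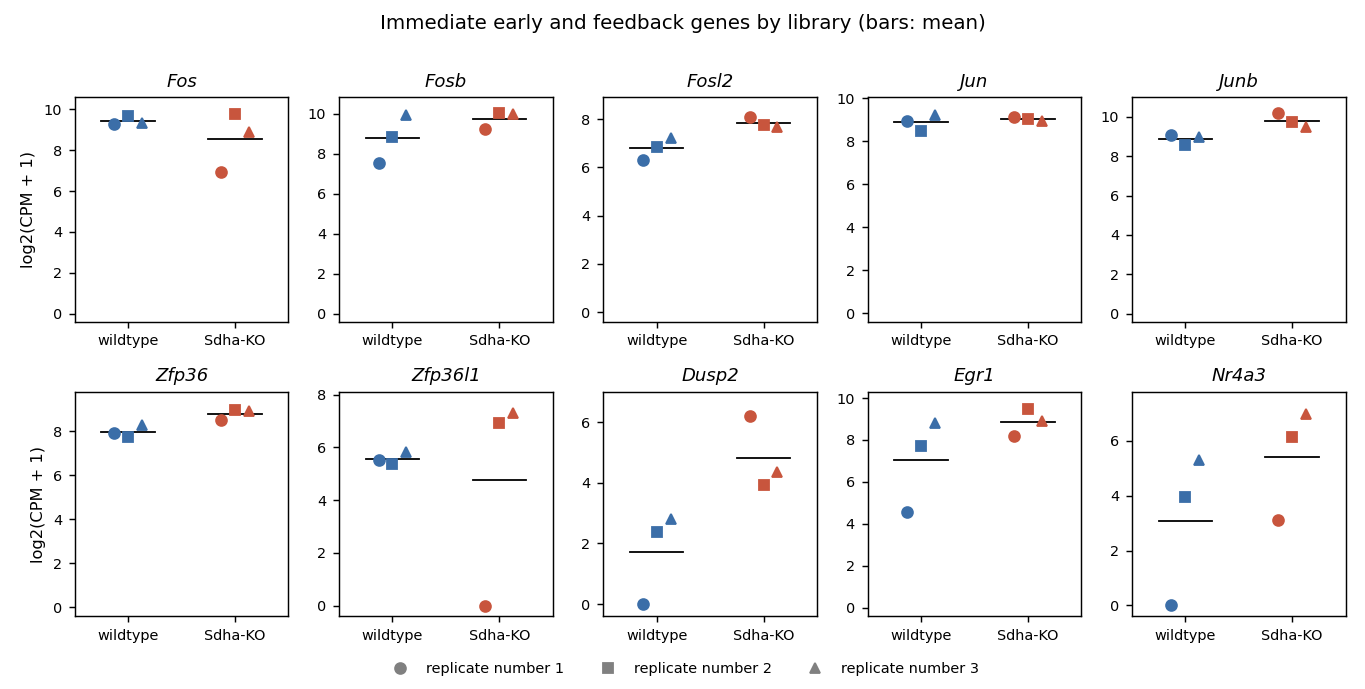
Level of 10 immediate early and feedback genes in each library (y axis, log2 of CPM plus 1; x axis, genotype; marker shape, replicate number; bars, means of 3 libraries). All Sdha-KO points lie above all wildtype points in the panels of Fosl2, Junb, Zfp36 and Dusp2, and Zfp36l1, Dusp2 and Nr4a3 each have a library at 0 in replicate number 1.

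Among the zinc finger and nuclear receptor factors no gene had separate groups. Klf4, a macrophage factor, had 408, 506 and 622 CPM in wildtype replicates 1 to 3 and 518, 608 and 447 CPM in Sdha-KO replicates 1 to 3, with a log2 fold change of 0.03 (SE 0.303). Klf6 had 247, 473 and 533 CPM in wildtype replicates 1 to 3 and 102, 934 and 646 CPM in Sdha-KO replicates 1 to 3. The lowest and the highest Klf6 values again belonged to Sdha-KO replicates 1 and 2, and the log2 fold change was 0.43 (SE 0.707). Nr4a3 (chr4:48045153-48086447, plus strand), an orphan nuclear receptor induced by cyclic AMP and calcium, had 0, 14.6 and 38.8 CPM in wildtype replicates 1 to 3 and 7.59, 70.1 and 126 CPM in Sdha-KO replicates 1 to 3. In each replicate number the Sdha-KO library was higher, by 3.10 on the log2 scale of CPM plus 1 in number 1, where the wildtype library was at 0, 2.18 in number 2 and 1.67 in number 3, but the spread between batches was wide (log2 fold change 1.93 (SE 1.67)). Egr2, a zinc finger factor of macrophage activation, went the other way, with 228, 109.6 and 148 CPM in wildtype replicates 1 to 3 and 139, 77.5 and 110.4 CPM in Sdha-KO replicates 1 to 3. It was lower in the Sdha-KO library of each replicate number (log2 fold change -0.57 (SE 0.448), edgeR adjusted p = 1.00).

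The remaining factors of that group had overlapping genotype groups. Egr1 ranged from 22.5 to 443 CPM in the wildtype and from 294 to 717 CPM in the Sdha-KO libraries and was higher in Sdha-KO in each number, by 0.10 on the log2 scale in number 3. Its near relative Egr3 ranged from 1.53 to 18.4 CPM in the wildtype and from 0 to 23.2 CPM in the Sdha-KO libraries. Klf2 ranged from 22.2 to 91.2 and from 59.9 to 113.9 CPM. Nr4a1 was at 104, 85.9 and 90.8 CPM in the wildtype and at 0.834, 86.8 and 164 CPM in the Sdha-KO libraries, so that only Sdha-KO replicate 1 left the range of the others by far. Nr4a2 was at 0 in both batch 1 libraries, with 28.0 and 40.7 CPM in the other wildtype and 51.1 and 51.4 CPM in the other Sdha-KO libraries.

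Of the other immediate early factors Maff, a small bZIP protein, had 31.2, 77.7 and 78.8 CPM in wildtype replicates 1 to 3 and 101, 59.5 and 105 CPM in Sdha-KO replicates 1 to 3 (log2 fold change 0.50 (SE 0.588)). Ier2 and Ier5, whose products act in the nucleus, reached their highest values, 361 and 447 CPM, in Sdha-KO replicate 1. In replicates 2 and 3 both were lower in Sdha-KO than in wildtype, with Ier2 at 93.4 and 65.1 against 126.9 and 142 CPM and Ier5 at 141.3 and 189 against 150.7 and 247 CPM. Myc, a growth factor-induced regulator of biosynthesis, was at 0, 17.8 and 24.8 CPM in the wildtype and 0.250, 5.95 and 23.7 CPM in the Sdha-KO libraries. These 4 factors were therefore higher in Sdha-KO in number 1 for 4 of 4 (Myc at the level of the floor), in number 2 for 0 of 4 and in number 3 for 1 of 4.

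The feedback genes held a second pair with separate groups. Zfp36 (chr7:28376784-28380253, minus strand), which encodes tristetraprolin, had 238, 216 and 307 CPM in wildtype replicates 1 to 3 and 361, 506 and 480.2 CPM in Sdha-KO replicates 1 to 3. The means were 254 ± 47.2 CPM in the wildtype and 449 ± 77.5 CPM in the Sdha-KO libraries (SD, n = 3 each), and the log2 fold change was 0.82 (SE 0.323), unadjusted edgeR p 0.0253, adjusted p 1.00. Its paralog Zfp36l1 (chr12:80107754-80113013, minus strand) had 44.6, 40.4 and 55.3 CPM in wildtype replicates 1 to 3 and 0, 122 and 156 CPM in Sdha-KO replicates 1 to 3. Sdha-KO replicate 1 had no count and the other Sdha-KO libraries lay above all wildtype libraries, so the log2 fold change was 0.99 (SE 1.78).

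Dusp2 (chr2:127336159-127338376, plus strand), a nuclear phosphatase of MAP kinases, had 0, 4.22 and 5.98 CPM in wildtype replicates 1 to 3 and 72.00, 14.1 and 19.7 CPM in Sdha-KO replicates 1 to 3. Each Sdha-KO library exceeded each wildtype library, but the highest Sdha-KO library, replicate 1, was of the batch in which the wildtype library had no count, and the fitted log2 fold change was 3.37 (SE 2.04). Leaving out the wildtype library of batch 1 gave 2.78, leaving out the Sdha-KO library of batch 1 gave 2.32, and leaving out both gave 1.73 (adjusted p = 0.504). Dusp1, the phosphatase whose promoter is printed above, had 560.4, 305 and 488 CPM in wildtype replicates 1 to 3 and 266, 318 and 425 CPM in Sdha-KO replicates 1 to 3 and overlapping groups (log2 fold change -0.42 (SE 0.346)). Dusp5 did not pass the filter, with counts in replicate 3 alone (wildtype 2.93 CPM, Sdha-KO 2.68 CPM). Btg1 and Btg2, anti-proliferative genes, ranged from 301 to 446 and from 171 to 225 CPM in the wildtype and from 283 to 448 and from 93.4 to 209 CPM in the Sdha-KO libraries, and Btg2 was lower in Sdha-KO in all 3 numbers.

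Because each replicate number holds both genotypes, the difference was also read within numbers, as the log2 ratio of CPM plus 1. Sdha-KO was higher for 20 of 34 tested members in number 1, 25 in number 2 and 22 in number 3 (58.8%, 73.5% and 64.7%), against 29.9%, 47% and 48.7% of all tested genes. By role it was higher for 15, 17 and 14 of 25 immediate early and feedback members and 5, 8 and 8 of 9 heat shock genes. Among genes of at least 20 CPM, Sdha-KO was higher for 60%, 76.7% and 63.3% of 30 members, against 44%, 51.5% and 47.3% of genes. In all 3 numbers it was higher for 12 members (Fosb, Fosl2, Junb, Egr1, Nr4a3, Zfp36, Dusp2, Hspa1b, Hsp90aa1, Hsph1, Dnajb1 and Dnaja1, 35.3%), against 11.4% of all tested genes. Among genes of at least 20 CPM it was 11 of 30 members (36.7%) and 19% of genes. It was lower in all 3 for Egr2 and Btg2 (5.88%), against 19.9% of all tested genes. These counts carry no test, because members share their libraries and are not replicates.

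**Figure D3:**
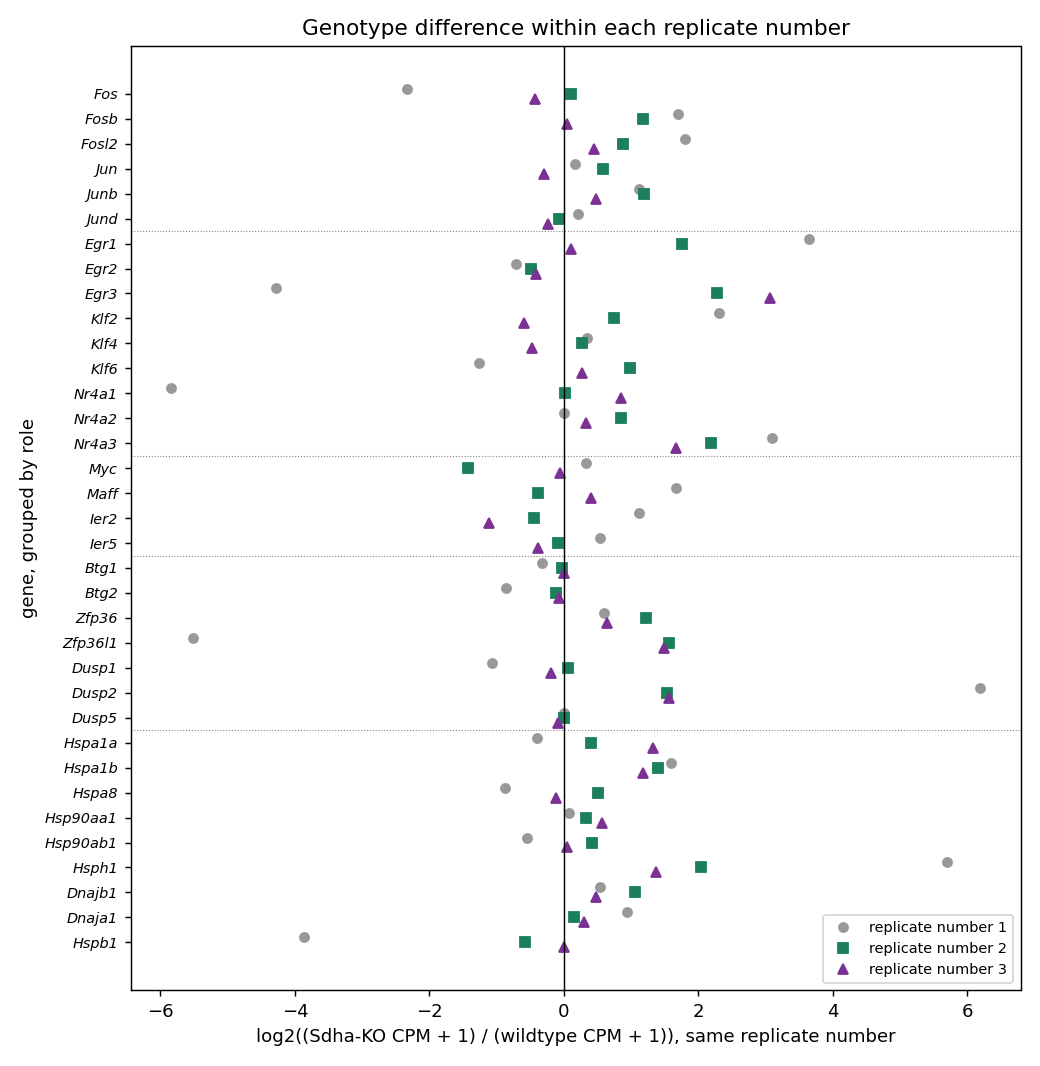
Log2 ratio of Sdha-KO over wildtype CPM plus 1 (x axis) for each member (y axis, grouped by role) in replicate numbers 1, 2 and 3 (marker shape and colour). The widest ratios, for Nr4a1, Zfp36l1, Dusp2 and Hsph1, are those of number 1, in which one library of the pair is at or near 0.

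Summed over the 26 immediate early and feedback genes, levels were 5273, 5325 and 7394 CPM in wildtype replicates 1 to 3 and 6380.2, 8179 and 7521 CPM in Sdha-KO replicates 1 to 3. The wildtype library of replicate 3 lay within the Sdha-KO range, so the groups overlapped. As shares of all counts the sums were 0.522%, 0.413% and 0.723% in wildtype and 0.902%, 0.815% and 0.694% in Sdha-KO libraries. The 45S ribosomal RNA row alone held 36.3%, 57.6% and 44.7% of wildtype and 20.9%, 43.4% and 48.2% of Sdha-KO counts. With it and the rows Rn4.5s and Lars2 left out, the ratio of the mean shares, Sdha-KO over wildtype, was 1.22 in place of 1.45.

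Some of the heat shock genes showed another pattern, in which replicate 3 was the highest library of both genotypes. Hspa1a (chr17:34969190-34972156, minus strand) and Hspa1b (chr17:34956436-34959238, minus strand) encode the stress-inducible cytosolic Hsp70, and neither had separate genotype groups. Hspa1b had 19.6, 16.9 and 162 CPM in wildtype replicates 1 to 3 and 61.3, 46.1 and 365 CPM in Sdha-KO replicates 1 to 3. Replicate 3 was the highest library of each genotype, above replicate 2 by 3.19 on the log2 scale in wildtype and 2.96 in Sdha-KO. Hspa1a had 33.8, 58.4 and 260.1 CPM in wildtype replicates 1 to 3 and 25.5, 77.7 and 652 CPM in Sdha-KO replicates 1 to 3, with differences of 2.14 and 3.05 between the same libraries. The 2 genes are 99.49% identical up to the stop codon (2146 of 2157 bases) and 70.22% identical in the 544 bases that align after it, and 296 of the 300 promoter bases are shared. Reads within the shared stretch could be split between them by the authors' counting, so their separate levels are uncertain.

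Hsp90aa1, the inducible Hsp90, was also highest in replicate 3 of each genotype, with 352, 318 and 801 CPM in wildtype replicates 1 to 3 and 373, 402 and 1188 CPM in Sdha-KO replicates 1 to 3. Hsph1 (chr5:149614287-149636376, minus strand), the Hsp110 nucleotide exchange factor of Hsp70, had 0, 10.7 and 57.3 CPM in wildtype replicates 1 to 3 and 51.1, 46.9 and 149 CPM in Sdha-KO replicates 1 to 3. Here too replicate 3 was the highest library of each genotype. The constitutive members were flatter. Hsp90ab1 had 3517, 1694 and 2279 CPM in wildtype replicates 1 to 3 and 2410.1, 2266 and 2357 CPM in Sdha-KO replicates 1 to 3, so that the Sdha-KO libraries lay within the wildtype range. Hspa8, the constitutive Hsc70 that folds new proteins, had 848, 331 and 481 CPM in wildtype replicates 1 to 3 and 462, 473 and 444 CPM in Sdha-KO replicates 1 to 3, with wildtype replicate 1 the highest and the Sdha-KO libraries close to each other.

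**Figure D4:**
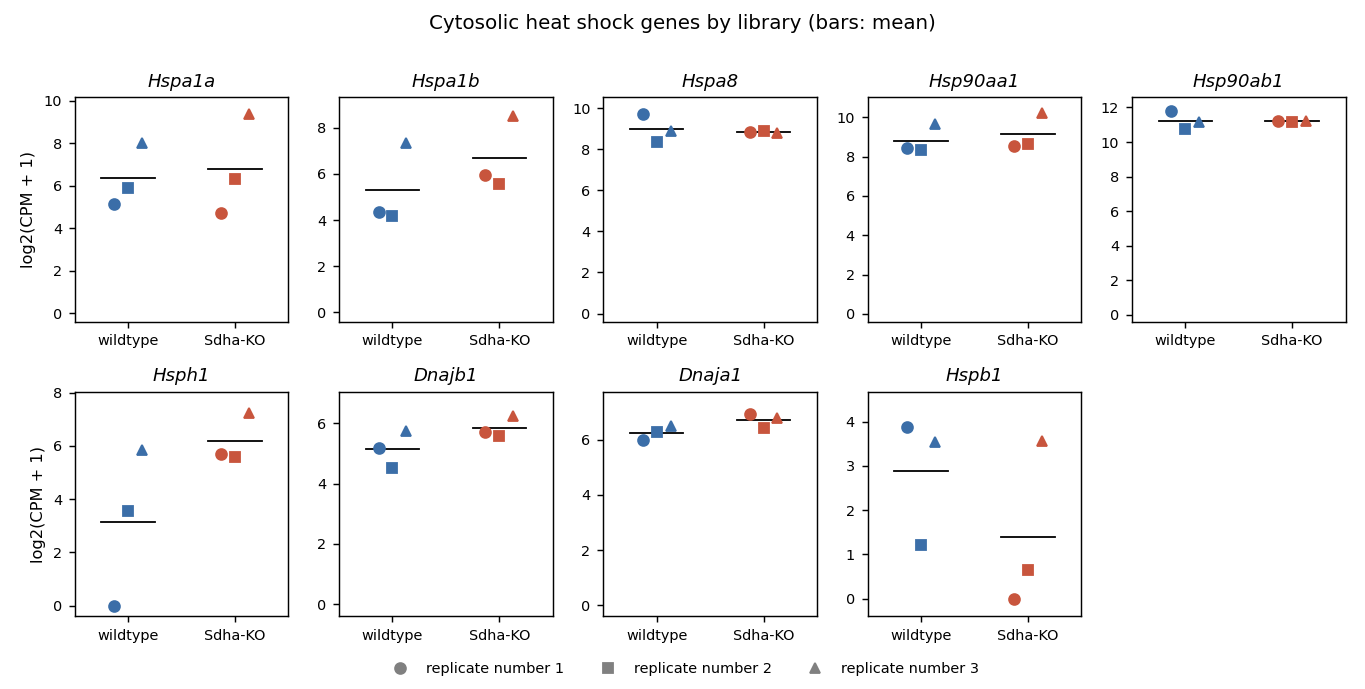
Level of the 9 heat shock genes in each library (y axis, log2 of CPM plus 1; x axis, genotype; marker shape, replicate number; bars, means of 3 libraries). In the panels of Hspa1a, Hspa1b, Hsp90aa1, Hsph1 and Dnajb1 the triangle, replicate 3, is the highest point of each genotype.

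In all, 5 of 9 heat shock genes (Hspa1a, Hspa1b, Hsp90aa1, Hsph1 and the small chaperone Hspb1, 55.6%) were more than 1 log2 unit higher in replicate 3 than in replicate 2 in both genotypes, as were 308 of 9963 tested genes (3.09%) and 1 of 26 immediate early and feedback genes (Dusp5, 3.85%). Over the 9 genes the median difference reached 1.33 in the wildtype and 1.56 in the Sdha-KO pair, against 0.46 and 0.01 for the immediate early and feedback genes and 0.03 and 0.09 for all tested genes. Each library stands alone in this comparison, which therefore has no test, and it was chosen after the values were seen. Dnajb1 and Dnaja1, the J-domain partners of Hsp70, ranged from 22.2 to 53.2 and from 62.9 to 88.5 CPM in the wildtype and from 47.4 to 74.7 and from 84.8 to 121 CPM in the Sdha-KO libraries. Replicate 3 was also the highest Dnajb1 library of each genotype. Its log2 difference from replicate 2 was 1.225 in wildtype and 0.64 in Sdha-KO. Hspb1 ranged from 1.33 to 13.6 CPM in the wildtype and from 0 to 10.7 CPM in the Sdha-KO libraries. Its difference rests on 6 counts in wildtype replicate 2 and 3 counts in Sdha-KO replicate 2, near the floor. In the wildtype its highest library was replicate 1.

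Between genotypes the heat shock genes had a median log2 fold change of 0.47, 6 of 9 positive, and none had separate groups. Within numbers 2 and 3, Sdha-KO was higher for 8 of 9 in each, and in number 1 for 5 of 9. The fitted log2 fold changes were 1.25 (SE 1.15) for Hspa1b, 1.86 (SE 1.64) for Hsph1 and 0.42 (SE 0.515) for Hsp90aa1, and -0.27 (SE 0.36) for Hspa8 and -0.09 (SE 0.287) for Hsp90ab1. All had an edgeR adjusted p of 1.00. In this fit, which ignores the pairs, signs changed when Sdha-KO replicate 3 was left out and its wildtype partner stayed in. Hspa1b was then at -0.31, Hsp90aa1 at -0.35 and the median of the heat shock genes at -0.25. Within replicate numbers, Hspa1b and Hsp90aa1 were higher in Sdha-KO in all 3. With the replicate block on all libraries, Hspa1b was at 1.42 (SE 0.327) and Hsp90aa1 at 0.33 (SE 0.174). Both had an edgeR adjusted p of 0.966 in that fit. With library totals in place of TMM factors Hsp90ab1 was at 0.16.

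**Figure D5:**
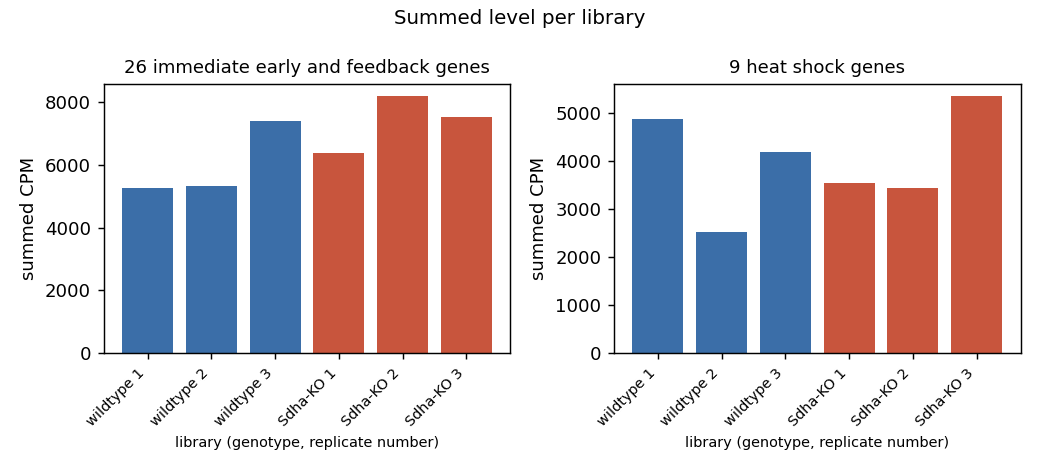
Summed CPM (y axis) of the 26 immediate early and feedback genes and of the 9 heat shock genes in each of the 6 libraries (x axis, bars starting at 0). The immediate early sums of wildtype replicates 1 and 2, 5273 and 5325 CPM, are the lowest, and the heat shock sum is highest in Sdha-KO replicate 3 at 5349 CPM.

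Summed heat shock levels were 4882, 2529 and 4193 CPM in wildtype replicates 1 to 3 and 3556, 3444 and 5349 CPM in Sdha-KO replicates 1 to 3. Their order differed between the genotypes, with replicate 1 the highest in wildtype, where Hsp90ab1 made up most of the sum, and replicate 3 the highest in Sdha-KO.

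With both batch 1 libraries left out, the biological coefficient of variation was 0.677 in place of 1.40. In 4 libraries edgeR called 27 of 10757 genes (0.251%) and 0 of 35 members, and 9 members had an unadjusted p under 0.05. Adding the replicate number as a block, with 1 residual degree of freedom left per gene, it called 324 genes (3.01%) and 6 members (17.1%), all higher in Sdha-KO. These were Nr4a3 (log2 fold change 1.98, adjusted p = 0.00270), Zfp36l1 (1.56, 0.00302), Hspa1b (1.31, 0.00395), Hsph1 (1.74, 0.00695), Zfp36 (0.95, 0.00987) and Junb (0.85, 0.0227). In these 4 libraries the sex mix described above went with genotype, and the effects of both cannot be told apart.

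Other genes of the 2 programs came from lists fixed by name. Of 23 further immediate early genes tested, 16 had a positive and 7 a negative log2 fold change (median 0.77), and 0 passed the test. Of the 23, 5 had all Sdha-KO libraries above all wildtype libraries. As background, 5.04% of all tested genes and 8.84% of those of at least 20 CPM had this. The 2 most abundant of the 23 were Nfkbia, the inhibitor of NF-kB, and the kinase gene Sgk1. Nfkbia had 427, 782 and 1881 CPM in wildtype replicates 1 to 3 and 2154, 3636 and 3961 CPM in Sdha-KO replicates 1 to 3. Sgk1 had 404, 663 and 616 CPM in wildtype replicates 1 to 3 and 309.9, 673 and 547 CPM in Sdha-KO replicates 1 to 3. Nfkbia thus had separate groups (log2 fold change 1.66 (SE 0.516), unadjusted edgeR p 0.0113, adjusted p 1.00) and Sgk1 did not. The other 4 with separate groups, named after their values were seen, were Ier3, Gadd45b, Socs3 and Ppp1r15a.

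Upstream, 14 genes of kinases and factors that feed immediate early promoters were tested, with 9 positive, 5 negative, a median of 0.21 and 0 called. The 2 most abundant, the ERK1 gene Mapk3 and the p38-activated kinase gene Mapkapk2, had log2 fold changes of 0.29 (SE 0.413) and 0.41 (SE 0.496). Of 22 heat shock factors, co-chaperones and other HSF1 targets, 12 were positive and 10 negative (median 0.22, 0 called). All Sdha-KO libraries lay above all wildtype libraries for 5 of these 22 and below them for 1. As background, 5.04% of all tested genes lay above and 9.27% below in this way. Of the tested genes of at least 20 CPM it was 8.84% and 10.4%. St13, a co-chaperone of Hsp70, had a log2 fold change of -0.02 (SE 0.416). The chaperones of the endoplasmic reticulum answer to the unfolded protein response and not to HSF1. They had 2 of 12 positive (median -0.39, 0 called). Among these chaperones 1 had all Sdha-KO libraries below all wildtype libraries and 0 had all above. Hspa5, their Hsp70, was at 1362, 879 and 978 CPM in the wildtype and 1072, 1024 and 939 CPM in the Sdha-KO libraries, and the lectin chaperone Calr was at 1381, 900.3 and 981 and 764, 956 and 630.5 CPM.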

How the data were processed

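The authors deposited raw read counts per gene symbol from sorted alveolar macrophages (3 wildtype, 3 Sdha-KO). The labels' protocols name a QuantSeq 3' mRNA kit. Bowtie2, bedtools and mm10 are named in the submitters' processing notes. Versions, annotation, strand and the handling of reads with several matches: not given in the sources used here.

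Deposited counts were tested with edgeR 4.0.16 (R 4.3.3) by a robust quasi-likelihood fit of genotype alone, after filterByExpr at a minimum count of 10 and TMM scaling, adjusted over 9963 genes by Benjamini-Hochberg at 0.05. Total counts set the precision, with a floor of 3 counts for a 0. Reads have no stated molecular identifiers, so floors cover counting error only. The members and the lists were chosen with earlier results of these data known. All members are named. Every library's value is given for those with groups that do not overlap, among the 10 most abundant, past the threshold in any setting, or with the lowest p of their role. From each other list the 2 most abundant genes are named, except 1 that is not reported here.

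The replicate number pairs the libraries, since the labels give it as the batch. Deviations from the group means correlated at 0.155, 0.117 and 0.126 for equal numbers and at -0.152 to 0.111 for others. Alternatives were the replicate block, RLE factors, library totals, other filters, DESeq2 1.42.0, limma 3.58.1 voom, leaving out libraries or 3 rows, and other pseudocounts. DESeq2 and voom with the block were added after seeing the data. Coordinates are GENCODE M21 on mm10, promoters RefSeq GRCm38.p6, and copies were searched with BLAST 2.17.0+. No pair of libraries agreed within counting noise (lowest chi-square over its degrees of freedom 39.4).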

Additional observations from a re-analysis of the deposited data

How the results depend on the processing

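The count of members past the threshold was 0 in every refit of the 3 tools except limma-voom (1) and the fit without both batch 1 libraries with the replicate block (6). The count of all genes past it, 5 at first, moved widely. It was 0 with the replicate block (296 at an unadjusted p of 0.05, and 5 members), 9 with library totals alone, 48 without a filter on low counts, 0 when 10 counts were required in all libraries of a group (255 unadjusted), 21 with DESeq2, 79 with limma-voom, 72 with DESeq2 and the replicate block, 3 with limma-voom and the replicate block, 27 without both batch 1 libraries and 324 with the replicate block added to that. Leaving out 1 library at a time gave 0 to 13 genes and 0 members. The count was 0 without wildtype replicate 1, 12 and 13 without wildtype replicates 2 and 3, and 3 and 2 without Sdha-KO replicates 1 and 3.

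Of 342 refitted values for the 19 members with fold changes, 316 kept their direction and side of the threshold, 7 passed it and 19 changed sign, in 8 members. Junb, Fosl2, Zfp36, Dusp2, Fosb, Nr4a3 and Hsph1 stayed positive when any 1 library was left out, with log2 fold changes of 0.73 to 1.09, 0.80 to 1.25, 0.71 to 0.98, 2.32 to 4.06, 0.28 to 1.45, 1.12 to 3.21 and 1.10 to 3.95. The ranges of others crossed 0, at -0.11 to 0.20 for Klf4, -0.54 to 0.17 for Hspa8, -0.31 to 0.23 for Hsp90ab1, -0.0720 to 0.31 for Jun, -0.31 to 3.11 for Hspa1b, -0.35 to 0.96 for Hsp90aa1 and -0.14 to 0.93 for Klf6. Maff (0.17 to 0.73) and Zfp36l1 (0.37 to 1.57) also stayed positive. Fos, Egr2 and Dusp1 stayed negative, at -1.21 to -0.0291, -0.80 to -0.25 and -0.65 to -0.24. Refits with 1 library left out had no replicate block, and the partner of the other genotype stayed in. Zfp36l1 was at -0.0321 with the replicate block, at -0.0269 with DESeq2 and the block, and at -4.67 with limma-voom, where Klf6 was at -0.35. Without both batch 1 libraries Klf4, Hspa8 and Hsp90ab1 were at -0.0838, 0.19 and 0.23, and with the replicate block added at -0.0942, 0.21 and 0.25. Hsp90ab1 was at 0.16 with library totals alone. The cause was not tested for these changes. The replicate block changed no call of a member with edgeR on all 6 libraries or with DESeq2, while with limma-voom it ended the call of Junb (adjusted p 0.0470 without and 0.496 with the block). The counts of members higher within a replicate number cannot change with the pseudocount, and 5 members had separate groups with RLE factors.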
